A study of Mus musculus with 6 samples.

Results

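Long intergenic non-coding RNAs (lincRNAs) with a well-measured level were followed in the mouse lateral ganglionic eminence (LGE), the part of the embryonic ventral forebrain that produces the projection neurons of the striatum. Genes were chosen by annotation and by their mean count. A gene was taken when the deposited table gave it the biotype lincRNA, placed it on an autosome and held a mean of at least 100 counts over the 6 libraries. Besides this, 7 genes were left out by name (Meg3, Rian, Mirg, H19, Airn, Kcnq1ot1 and Dlx6os1), of which 3 (Meg3, Mirg and H19) met the rest of the rule. The rule gave 117 lincRNAs out of 2247 autosomal lincRNAs and 29659 genes in all. Since the mean was taken over both groups, the difference between the groups was not itself the criterion, but it could carry a gene over the limit. In all, 7 lincRNAs had a control mean under 100 counts and none had a Zfhx3-CKO mean under it. The limit was set on raw counts and the Zfhx3-CKO libraries had larger totals, so library depth enters here too. Log2 fold changes of the 7 after scaling ran from 0.08 (Gm32856) to 12.73 (Gm45836).

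RNA was sequenced from LGE of C57BL/6 mice at embryonic day 16.5. The 3 control libraries came from mice labelled Dlx5/6-Cre, and the 3 Zfhx3-CKO libraries from mice labelled Dlx5/6-Cre; Zfhx3F/F, so both groups carried the Cre transgene. Dlx5/6-Cre acts in GABAergic cells of the ganglionic eminences, and other cells in the dissected tissue are not its targets. Zfhx3 encodes a large transcription factor with zinc fingers and homeodomains, and the comparison addresses what changes in the LGE when it is conditionally removed.

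Most lincRNAs are transcribed by RNA polymerase II, spliced and polyadenylated like mRNAs, but are not translated into known proteins. Some act in the nucleus, some are precursors from which microRNAs (miRNAs) or small nucleolar RNAs are cut, and for many no function is known. In the developing brain the best understood are the host transcripts of neuronal miRNAs, which pair with mRNAs through a short stretch near their 5′ end, the seed, and repress them.

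Totals ranged from 15938590 to 16753355 counts per control library and from 18960574 to 20311799 per Zfhx3-CKO library. Zfhx3 itself was measured at 134, 135 and 101 CPM (counts scaled to a common library total) in the control libraries and 98.7, 87.3 and 99.3 CPM in the other group, a log2 fold change of -0.37 that did not pass (adjusted p 0.0911, and 0.0259 without control library 3); counts cover the whole gene, so transcripts without the deleted part still add to it. Xist had 5 to 9 counts per control library and 55947 to 59631 per Zfhx3-CKO library, so sex and genotype divide the libraries alike and cannot be told apart in any difference given here. The labels do not say that replicates came from separate animals, so p-values measure the spread between libraries, which may be technical. In whole tissue, fewer cells of a type and less RNA per cell cannot be told apart either. The summed CPM of 13 LGE and striatal markers was 5284, 5448 and 5038 in the control and 4527, 4764 and 4552 in the Zfhx3-CKO libraries, that of 5 proliferation markers 1649, 1769 and 1728 against 2399, 2621 and 2023, and that of 10 cortical excitatory markers 49.2, 51.5 and 46 against 176, 45.8 and 272. Single markers did not all go with these sums. Of the 13 LGE and striatal markers, 2 passed as higher and 5 as lower. Of the 5 proliferation markers 3 passed, all as higher, and of the 10 cortical excitatory markers 1, as higher. The part of cell composition in the differences below was not tested.

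Several of the most abundant lincRNAs here are miRNA hosts, so the mature miRNAs that RefSeq (GRCm38.p6) places inside them on the same strand are shown first. Capitals mark the seed, bases 2 to 8. Of the lincRNAs, 3 hold a copy of the same miRNA, miR-9, a regulator of neural progenitors and neurons: Gm3764 (Mir9-1, chr3:88215598-88215686, plus strand), C130071C03Rik (Mir9-2, chr13:83738814-83738885, plus) and Mir9-3hg (Mir9-3, chr7:79505264-79505353, plus). A430106G13Rik holds Mir181b-1 (chr1:137966639-137966718, plus) and overlaps the last bases of the Mir181a-1 hairpin, whose mature miRNAs lie before the start of the gene and are not shown. The others are miR-138 from C78859, miR-129 from Mir670hg, miR-17 and miR-20a from Mir17hg, which share a seed, and let-7d from 6720427I07Rik.
miR-9-5p: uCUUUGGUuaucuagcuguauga
miR-9-3p: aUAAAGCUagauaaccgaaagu
miR-181b-5p: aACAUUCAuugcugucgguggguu
miR-138-5p: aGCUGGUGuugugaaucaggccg
miR-129-5p: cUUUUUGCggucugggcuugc
miR-17-5p: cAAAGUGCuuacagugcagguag
miR-20a-5p: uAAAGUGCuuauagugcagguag
let-7d-5p: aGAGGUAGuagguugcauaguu
In all, 13 of the 117 lincRNAs held at least 1 RefSeq hairpin on their own strand, and 2 more, Mir124a-1hg and Mir124-2hg, are named as hosts of miR-124, an abundant miRNA of neurons, and hold its genes Mir124a-1 and Mir124a-2 in GENCODE vM21. The remaining miR-124 gene, Mir124a-3 (chr2:180894040-180894107, plus strand), ends within Gm27032 (chr2:180894105-180895220, plus), with 3 bases in common. The counts are of host transcripts, and the mature miRNAs were not measured.

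In the Zfhx3-CKO libraries 13 of the 117 lincRNAs passed the test, 3 higher and 10 lower. The test was edgeR's quasi-likelihood test over all 16551 genes with enough counts, at a Benjamini-Hochberg adjusted p of 0.05 over those genes, and all 117 lincRNAs were among them. The 13 are 11.1% of the lincRNAs, where 7.35% of all tested genes passed; by direction, 2.56% of the lincRNAs were higher (3.87% of all tested genes) and 8.55% lower (3.48%). All 3 that were higher had a control mean under 100 counts and so met the rule through the Zfhx3-CKO group; among the 110 lincRNAs with at least 100 mean counts in both groups, none was higher and 10 were lower. In those 110, DESeq2 called 2 higher and 15 lower, and limma-trend on FPKM 0 and 8. Over all genes, DESeq2 called 1014 higher and 793 lower, and limma-trend on FPKM 463 and 473. An unadjusted p under 0.05 in edgeR was reached by 6 higher and 27 lower lincRNAs of the 110. These 33 of the 110 stand beside 3316 of the 11727 tested genes with at least 100 mean counts over the 6 libraries, a slightly lower share. The 3316 were not split by direction. The groups did not overlap, meaning all 3 Zfhx3-CKO values lay on one side of all 3 control values, for 52 lincRNAs (44.4%, against 31.4% of all tested genes). Of these, 16 were higher (13.7%, against 15.5%) and 36 lower (30.8%, against 15.9%). Among all tested genes with at least 100 mean counts the share without overlap was 34.1%. Among the 44 autosomal antisense genes at that minimum it was 47.7%, with 6 higher and 15 lower. The number of calls depended on single libraries: 1 lincRNA was higher and 2 lower when either control library 1 or control library 2 was left out, 4 and 4 when control library 3 was, 3 and 2 for Zfhx3-CKO library 1, and 6 and 16 for Zfhx3-CKO library 3. Gm45836, Mir124a-1hg and Gm26917 passed whichever single library was left out, and each of the other 10 lost its call without at least 1 library.

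**Figure D1:**
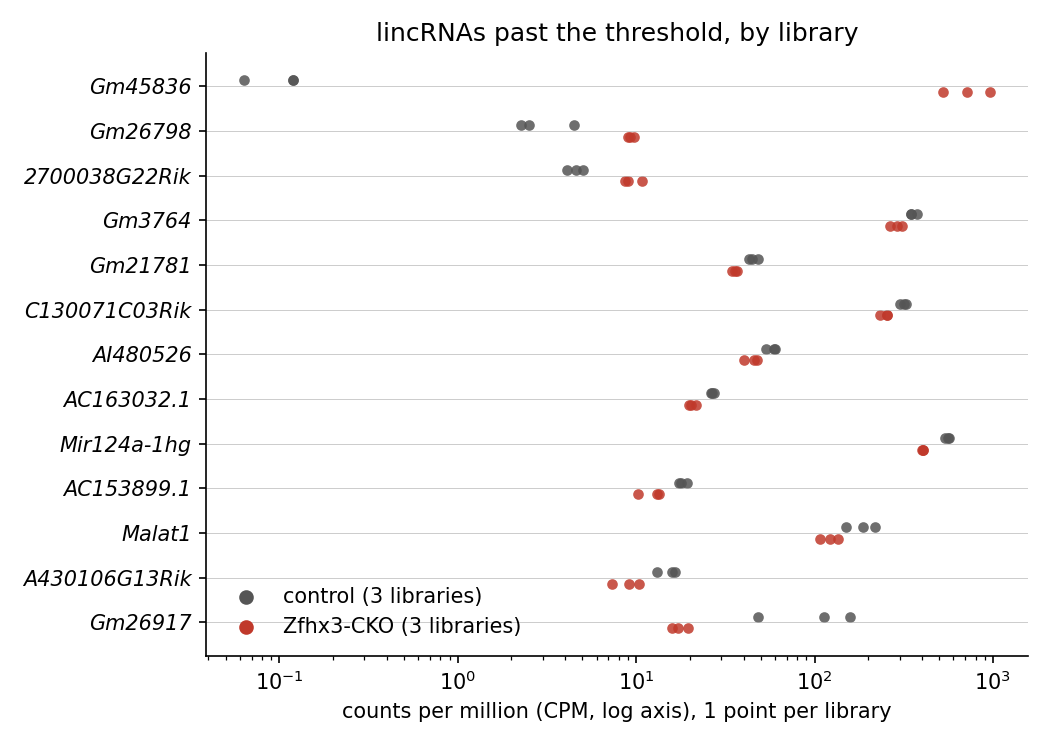
Level of the 13 lincRNAs past the threshold in each of the 3 control (grey) and 3 Zfhx3-CKO (red) libraries, in CPM on a log axis, 1 point per library. The groups do not overlap for any of the 13, and Gm45836 goes from at most 0.12 to at least 523 CPM.

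Differences were small for nearly all of these genes. For 102 of the 117 the log2 fold change lay within 0.5 of 0, and it exceeded 1 in either direction for 4 (Gm45836, Gm26798, 2700038G22Rik and Gm26917). The median was -0.14 (quartiles -0.32 and 0.10), with 75 of 117 below 0, where the median of all tested genes was 0.00. For the 10698 autosomal protein-coding genes with at least 100 mean counts the median was 0.01 and 7.57% passed. The median fold against the control mean was -0.11, -0.11 and -0.10 on the log2 scale in the 3 Zfhx3-CKO libraries and 0.04, -0.02 and -0.02 in the control libraries. The downward lean was therefore seen in each Zfhx3-CKO library and stayed below 0 under every alternative of the fit that was run. The 44 autosomal antisense genes at the same minimum had a median of -0.14 and the 349 tested autosomal lincRNAs under it -0.16, so the lean was also measured outside the 117. By count class it was largest at high counts: of the 15 lincRNAs with at least 1000 mean counts, 13 had a fold below 0 and the median was -0.25, while the 45 with 100 to under 200 counts had a median of -0.11.

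**Figure D2:**
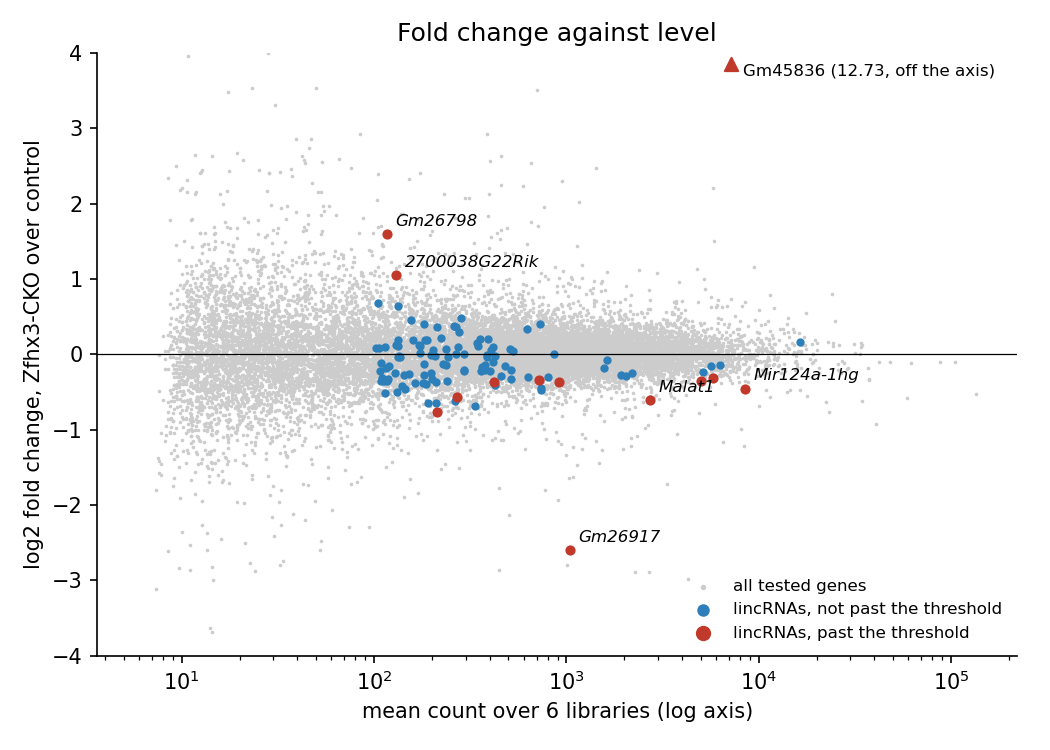
Log2 fold change (Zfhx3-CKO over control) against the mean count over 6 libraries on a log axis, for all tested genes (grey; the few beyond 4 in either direction are not drawn) and for the 117 lincRNAs, blue where not past the threshold and red where past it. Gm45836, at 12.73, is drawn as a triangle at the upper edge, and most lincRNAs lie slightly below 0.

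Lengths let levels be compared between genes. In FPKM (fragments per kilobase of transcript, scaled to library depth), the 117 lincRNAs ranged from 0.345 (Neat1) to 191 (6330403K07Rik) as means over the 6 libraries, with a median of 5.98, and 24 exceeded 10. The 10 highest were 6330403K07Rik, Mir124a-1hg, Miat, 2900097C17Rik, Gm45836, Gm3764, C130071C03Rik, 1700020I14Rik, Gm27032 and Gm12063, so the hosts of miR-124 and miR-9 were among the most abundant lincRNAs of this tissue. 6330403K07Rik stood at 212, 197 and 210 FPKM in the control and 170.5, 193 and 164 in the Zfhx3-CKO libraries (adjusted p 0.110, log2 fold change -0.23). All 3 of its Zfhx3-CKO values were the lower ones, and the difference did not pass, except without Zfhx3-CKO library 2 (adjusted p 0.0381). Gm27032 stood at 31.1 ± 4.40 and 40.7 ± 2.03 FPKM (SD, n = 3 each; adjusted p 0.0588, log2 fold change 0.40); in edgeR it passed without control library 3 (adjusted p 0.0313) or without Zfhx3-CKO library 3 (0.0443). Gm12063, whose start lies 1497 bases from that of Bcl11a, a zinc-finger factor of the striatum, stood at 33.8 and 28.8 FPKM (adjusted p 0.465, log2 fold change -0.23).

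Among the miRNA hosts, Mir124a-1hg, C130071C03Rik, Gm3764 and A430106G13Rik fell. A list of hosts was chosen with earlier results of these data known, and 6 of the lincRNAs were on it. Of these 6, 2 were lower (Mir124a-1hg and C130071C03Rik), none was higher and all 6 had a fold below 0 (median -0.32). The name of C130071C03Rik does not mark it as a host, and Gm3764, which also fell, was not on the list. Of the 13 lincRNAs with a RefSeq hairpin, 3 were lower, none was higher and 10 had a fold below 0 (median -0.25). The 104 without one had 3 higher, 7 lower and a median of -0.14. In edgeR 1 of the 13 reached an unadjusted p under 0.05 as higher and 4 as lower, and of the 6 none did as higher and 4 as lower; DESeq2 and limma-trend on FPKM called none higher in either set. With the miRNA genes of GENCODE vM21 instead, 16 lincRNAs shared bases with one on their strand, the 13 and Mir124a-1hg, Mir124-2hg and Gm27032; 4 of the 16 were lower and none higher, 12 had a fold below 0 (median -0.26), and DESeq2 called 4 lower and 1 higher. Mir124a-1hg (chr14:64587331-64593961, plus strand, 4 exons) was measured at 540, 565 and 558 CPM in the control libraries and 408, 403 and 400 in the Zfhx3-CKO libraries. The libraries of each group lay close together and the groups far apart relative to them, a 1.37-fold difference (adjusted p 0.00374, log2 fold change -0.46 with SE 0.06). Mir124-2hg, the host of another miR-124 copy, stood at 127, 122 and 104.5 against 92.4, 86.6 and 113 CPM (adjusted p 0.178, log2 fold change -0.27 with SE 0.11); Zfhx3-CKO library 3 lay among the controls, and without it the adjusted p was 0.0283 and the log2 fold change -0.39. Gm27032, which begins at the end of Mir124a-3, went the other way, at 32.9, 31.0 and 39.9 against 47.8, 44.6 and 44.2 CPM. Its groups did not overlap, and the difference did not pass in edgeR (adjusted p 0.0588, log2 fold change 0.40 with SE 0.11) but did in DESeq2 (adjusted p 0.0212). The split of the miR-124 genes was noted after these values were seen.

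All 3 miR-9 hosts had lower means in the Zfhx3-CKO group, and 2 of them passed. C130071C03Rik (chr13:83721381-83884194, plus, 4 exons) stood at 326, 303 and 316 CPM in the control and 254, 255 and 233 in the Zfhx3-CKO libraries (adjusted p 0.0196, log2 fold change -0.35 with SE 0.07). Exons of Gm33366 and Mir9-2 overlap 24.7% of the exonic bases of C130071C03Rik. The call was lost without any 1 of the 3 control libraries or Zfhx3-CKO library 1 (adjusted p 0.0508 to 0.104), with the fold between -0.32 and -0.37. Gm3764 (chr3:88206813-88229959, plus, 2 exons) stood at 348.5, 349 and 378 against 291.5, 265 and 308 CPM (adjusted p 0.0421, log2 fold change -0.32 with SE 0.08). It passed without Zfhx3-CKO library 3 and lost its call without any other library (adjusted p 0.0704 to 0.144). Mir9-3hg (chr7:79500026-79534403, plus, 3 exons) stood at 121, 120 and 135 against 95.1, 115 and 96.5 CPM (adjusted p 0.0911, log2 fold change -0.29 with SE 0.09), and Gm35040, which begins 1639 bases after its end on the same strand, at 135, 138 and 128 against 115, 119 and 104 (adjusted p 0.0772, log2 fold change -0.25); neither passed, Mir9-3hg did without Zfhx3-CKO library 2 (adjusted p 0.0227), and for both the groups did not overlap. Gm35040 was named after its values were seen.

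A430106G13Rik, the miR-181 transcript (chr1:137966531-137969918, plus, a single exon), was measured at 15.9, 16.6 and 13.1 CPM in the control and 7.34, 10.4 and 9.11 CPM in the Zfhx3-CKO libraries. The groups did not overlap, and the 1.70-fold difference passed (adjusted p 0.0308, log2 fold change -0.76 with SE 0.16). Without control library 1 or 2 or Zfhx3-CKO library 1 it did not pass (adjusted p 0.104 to 0.139). Its nearest protein-coding gene, Ptprc, a gene of leukocytes and microglia 92942 bases away, also fell, from 10.5 ± 1.56 to 6.54 ± 0.0772 CPM (SD, n = 3 each; adjusted p 0.0356, log2 fold change -0.68). Of the 6 fits that leave out a library, Ptprc passed in 1, that without Zfhx3-CKO library 3 (adjusted p 0.0358), and elsewhere the adjusted p reached up to 0.148. The summed CPM of 5 microglia markers was 237, 228 and 331 in the control and 231, 252 and 150 in the Zfhx3-CKO libraries. Of these 5 markers 1 passed, as lower. The part of such cells was not tested. Ptprc was named after its values were seen. Of the remaining hosts, C78859 stood at 13.2 ± 1.36 and 10.2 ± 3.41 CPM, Mir670hg at 9.00 ± 0.814 and 6.75 ± 1.84 CPM (adjusted p 0.334 and 0.248), and the groups overlapped for both. Zfhx3-CKO library 3 was the one nearest the controls in both, and without it C78859 (adjusted p 0.0214, log2 fold change -0.67) and Mir670hg (adjusted p 0.049, log2 fold change -0.64) passed. Mir17hg, host of a cluster active in dividing cells, stood at 28.1 ± 1.55 and 25.3 ± 3.58 CPM (adjusted p 0.462), 6720427I07Rik at 9.66 ± 0.975 and 11.0 ± 0.932 CPM (adjusted p 0.427), and E130102H24Rik, which holds Mir101a, at 7.50 ± 1.07 and 7.40 ± 0.466 CPM (adjusted p 0.956). C78859, 6720427I07Rik and E130102H24Rik were added, with values in view, because they hold a RefSeq hairpin. So do Snhg20, 2900076A07Rik, A230057D06Rik and Gm37233, and none of them passed (edgeR adjusted p 0.139, 0.766, 0.351 and 0.683). Their log2 folds were 0.36, 0.07, -0.25 and -0.17, in the same order. Of these, Snhg20 alone had groups that did not overlap, its Zfhx3-CKO values being the higher ones. Snhg20 is also the hairpin host counted above as higher at an unadjusted p under 0.05.

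**Figure D3:**
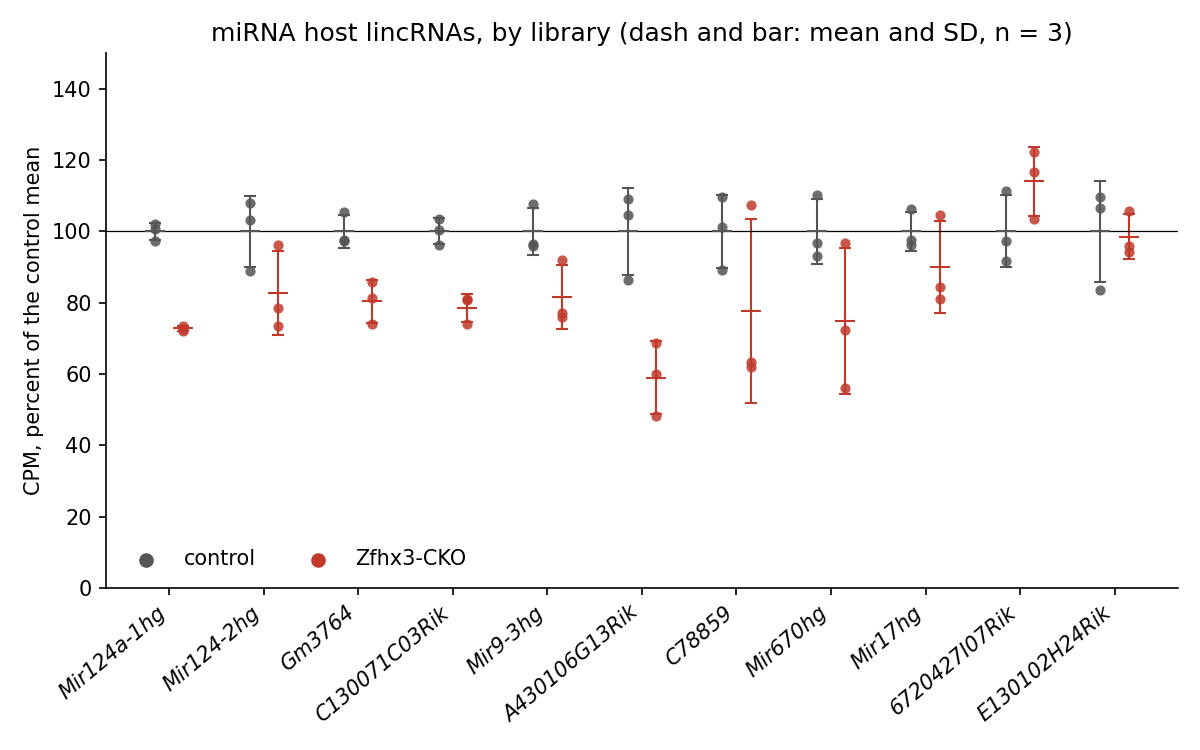
CPM of 11 miRNA host lincRNAs as a percent of each one's control mean, by library, with the mean (dash) and SD (bar) of 3 libraries a group. The Zfhx3-CKO points of Mir124a-1hg, Gm3764, C130071C03Rik, Mir9-3hg and A430106G13Rik lie below all their control points. Those of the other 6 drawn overlap the control points. Not drawn are Snhg20 and Gm27032, whose Zfhx3-CKO values lay above all control values. Also not drawn are 2900076A07Rik, A230057D06Rik and Gm37233, whose groups overlapped.

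Gm45836 had the largest difference among the 117 and is the sole gene of the table under 0.2 CPM in each control library and over 100 CPM in each Zfhx3-CKO library. The limits were set after its values were seen, and Xist, the X-linked lincRNA that divides the groups alike, comes close to them, at 0.298, 0.567 and 0.538 against 2870, 2959 and 3053 CPM. The deposited table places it at chr8:121833247-121841178, plus strand; the same gene identifier is called Gm42047 in GENCODE vM21, with 4 exons. It was measured at 0.119, 0.0630 and 0.120 CPM in the control and 718.5, 965 and 523 CPM in the Zfhx3-CKO libraries, which made it one of the 10 most abundant lincRNAs there (130 FPKM). The control group held 5 counts in all and the Zfhx3-CKO group 43153, a ratio of 7236 after scaling to library totals, with an exact 95% interval of 3101 to 22287 that covers counting error only (adjusted p 8.04e-07, log2 fold change 12.73 with SE 0.39). Of its longest transcript, 95.85% matches other annotated genes over stretches of at least 100 bases at 95% identity or more, with up to 3201 bases shared with Gm48362 on chromosome 9, and Gm47939, Gm43549, Gm47761 and Gm46349 on other chromosomes. These relatives were counted at no more than 2.22 CPM in any library, yet reads from any copy, annotated or not, could be assigned to this locus, so the place of origin is uncertain. The locus lies 12871616 bases beyond the end of the targeted gene Zfhx3 on the same chromosome.

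Klhdc4, which starts 3678 bases from Gm45836 on the opposite strand, also rose, from 25.0 ± 1.99 to 36.4 ± 3.16 CPM (SD, n = 3 each; adjusted p 0.0204, log2 fold change 0.54). It kept its call in 2 of the 6 fits that leave out a library, those without Zfhx3-CKO library 2 or 3; without Zfhx3-CKO library 1 or any control library the adjusted p reached up to 0.101. On the targeted locus itself, Gm45529 (chr8:108526937-108537221, minus strand, inside the Zfhx3 span) stood at 12.5, 13.9 and 13.1 against 8.81, 5.66 and 10.7 CPM. These groups did not overlap, but the difference did not pass (adjusted p 0.103, log2 fold change -0.65 with SE 0.21) unless Zfhx3-CKO library 3 was left out (adjusted p 0.0242); its exons overlap no annotated exon of Zfhx3, but unspliced Zfhx3 reads cannot be told apart from its own unless strand is marked, and the sources used here do not say that it was. D030068K23Rik, which begins 113591 bases beyond Zfhx3, stood at 21.4 ± 1.19 and 21.3 ± 2.89 CPM (adjusted p 0.986). Both were named after their values were seen.

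The other 2 lincRNAs that rose were near the count limit. Gm26798 (chr15:89211559-89215012, minus, 2 exons, of which 7.79% overlaps exons of Ppp6r2) was measured at 2.51, 2.27 and 4.48 CPM in the control and 9.25, 9.79 and 9.06 CPM in the Zfhx3-CKO libraries, a 3.02-fold difference (adjusted p 0.0089, log2 fold change 1.60 with SE 0.25). 2700038G22Rik (chr5:23850597-23855038, plus, 4 exons) stood at 4.12, 4.60 and 5.02 against 8.71, 8.99 and 10.8 CPM, a 2.07-fold difference (adjusted p 0.00832, log2 fold change 1.05 with SE 0.16). Without control library 1 or control library 2 neither passed (adjusted p 0.0647 and 0.0504 for Gm26798, 0.0625 and 0.054 for 2700038G22Rik), and their folds stayed above 0.98 on the log2 scale. Tomm7, the nearest protein-coding gene to 2700038G22Rik, did not pass (adjusted p 0.817, log2 fold change 0.06), nor did Dennd6b beside Gm26798 (-0.17, adjusted p 0.51).

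A non-coding gene 137929 bases away, AI506816 (chr5:23698296-23712667, minus, biotype processed transcript and so not one of the 117), rose further than 2700038G22Rik. It was measured at 7.58, 7.12 and 5.20 CPM in the control and 35.3, 37.9 and 50.3 CPM in the Zfhx3-CKO group (adjusted p 0.00024, log2 fold change 2.63 with SE 0.19), and passed whichever library was left out. The longest transcript of 2700038G22Rik shares 345 bases, 25.1% of its length, with AI506816 at 95% identity or more, so the counting could have split reads of one between both. AI506816 was named after its values were seen.

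Gm26917 had the largest fall among the 117. It is a single-exon gene at chr17:39843013-39846341 (plus), in the stretch of chromosome 17 where this genome build carries the ribosomal RNA precursor gene. It stood at 113.5, 158 and 48.3 CPM in the control and 17.2, 19.6 and 15.9 CPM in the Zfhx3-CKO libraries, a 6.06-fold difference (adjusted p 0.00616, log2 fold change -2.60 with SE 0.37). The control libraries differed among themselves by more than 3-fold, control library 3 being the lowest, while the Zfhx3-CKO libraries lay close together. Rn7sk, a small nuclear RNA without a poly(A) tail that was looked up after these values were seen, was measured at 1.55, 1.01 and 1.20 against 0.196, 0.423 and 0.154 CPM (adjusted p 0.0185, log2 fold change -2.26), a call kept in 2 of the 6 fits without a library (those without Zfhx3-CKO library 2 or 3) and otherwise lost (adjusted p up to 0.103). The amount of RNA without poly(A) in each library was not otherwise measured, and its part in the fall of Gm26917 was not tested.

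Malat1, an abundant RNA of nuclear speckles (chr19:5795690-5802672, minus, a single exon in its longest transcript), fell 1.53-fold. It was measured at 188, 218 and 151 CPM in the control and 135, 107 and 122 CPM in the Zfhx3-CKO group (adjusted p 0.0341, log2 fold change -0.61 with SE 0.14). The groups did not overlap, but control library 3 and Zfhx3-CKO library 1 lay close, and the call was lost without control library 1 or 2 or Zfhx3-CKO library 1 or 2 (adjusted p 0.0519 to 0.136). Neat1, the paraspeckle RNA next to it, was measured at 7.78 ± 1.22 and 6.53 ± 0.427 CPM (adjusted p 0.365, log2 fold change -0.25). Of 5 nuclear or broadly expressed lincRNAs, 1 was lower and none higher in edgeR, in DESeq2 1 and none, and none reached an unadjusted p under 0.05 as higher. Miat, the one of the 117 with the highest counts and another nuclear RNA of neurons, stood at 836, 888 and 845 against 889, 1084 and 914 CPM (adjusted p 0.252, log2 fold change 0.17). 2900097C17Rik, known as Norad, stood at 368 ± 20.9 and 334 ± 28.5 CPM (adjusted p 0.308), and 1700020I14Rik, known as Cyrano, at 330.4 ± 22.2 and 296 ± 29.0 CPM (adjusted p 0.297).

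The 4 other lincRNAs that fell have no function known well enough to state. Gm21781 (chr10:4391587-4396424, plus) stood at 48.3, 44.6 and 42.8 against 35.8, 34.3 and 36.5 CPM (adjusted p 0.04, log2 fold change -0.35). AC153899.1 (Gm20300 in GENCODE vM21; chr10:30603195-30606634, minus) stood at 19.2, 17.4 and 17.9 against 13.1, 10.2 and 13.4 CPM (adjusted p 0.0411, log2 fold change -0.57). AI480526 (chr5:123133723-123141666, minus) stood at 53.4, 59.1 and 60.1 against 47.8, 40.4 and 45.5 CPM (adjusted p 0.0446, log2 fold change -0.37), and 66.6% of its exonic bases overlap the lincRNAs 4932422M17Rik and Gm38102. AC163032.1 (Gm49602 in GENCODE vM21; chr12:118231595-118234564, minus) stood at 26.2, 26.6 and 27.3 against 20.2, 21.8 and 19.9 CPM (adjusted p 0.0475, log2 fold change -0.37). The groups did not overlap for any of the 4, and each passed in only 1 of the 6 fits without a library: without Zfhx3-CKO library 3 for the first 3 named and without Zfhx3-CKO library 2 for AC163032.1 (adjusted p otherwise 0.0541 to 0.178). Their nearest protein-coding genes, Zbtb2, Hint3, Setd1b and Sp4, had log2 fold changes of 0.23, -0.03, 0.05 and -0.13 and did not pass; Sp4 ends 368 bases before AC163032.1 starts, on the same strand.

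Of the 5 small nucleolar RNA hosts among the 117, none passed in either direction in edgeR, DESeq2 or limma-trend on FPKM, 1 (Snhg20) had an unadjusted p under 0.05, and the median log2 fold change was 0.09. Snhg20 stood at 12.7, 11.8 and 14.2 against 17.2, 18.0 and 14.4 CPM (adjusted p 0.139, log2 fold change 0.36 with SE 0.13), Snhg12 at 10.6 ± 2.59 and 9.70 ± 1.49 CPM, Snhg6 at 8.26 ± 0.442 and 9.46 ± 2.45 CPM, Snhg18 at 6.47 ± 0.988 and 5.55 ± 1.73 CPM and Epb41l4aos at 5.47 ± 0.18 and 5.80 ± 1.16 CPM. The values of Snhg20 did not overlap between the groups, those of the other 4 did. Of lincRNAs named for a neighbouring neural transcription factor gene, Pantr1, beside the POU factor gene Pou3f3, was the sole member, at 89.8, 87.8 and 101.5 against 85.9, 86.5 and 74.0 CPM (adjusted p 0.246, log2 fold change -0.18).

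The 104 lincRNAs that did not pass had log2 fold changes between -0.69 (1700048O20Rik, named for its value) and 0.68 (E130006D01Rik, adjusted p 0.0778, and 0.0198 without Zfhx3-CKO library 3). At the count limit, E130006D01Rik, Epb41l4aos and Gm32856 had mean counts of 105, 102 and 106, and just below it 2210008F06Rik, Gm12371 and Gm26803 had 98.0, 98.7 and 98.7. Gm26803 lies on the minus strand within the span of the miR-9 host C130071C03Rik (chr13:83723442-83729582) and stood at 8.95, 7.37 and 6.16 against 3.52, 4.23 and 3.58 CPM.

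LincRNAs with a single exon leaned further down than spliced ones. Counting exons in the longest GENCODE vM21 transcript, which 116 of the 117 had, the 29 with 1 exon had a median log2 fold change of -0.27, with 25 below 0, 6 lower and none higher; DESeq2 called 6 lower and 2 higher, and 9 lower and 3 higher had an unadjusted p under 0.05. The 87 with more exons had a median of -0.03, with 49 below 0, 4 lower and 3 higher. The median against the control mean was -0.24, -0.24 and -0.20 in the 3 Zfhx3-CKO libraries for the first and -0.03, -0.06 and -0.06 for the second. The gap was present in each of them, though all 3 are set against the same control mean. In the control libraries the medians were 0.04, -0.002 and -0.08 for the first and 0.04, -0.02 and -0.02 for the second. Median counts (268.5 and 260.3) and median GC content (46.5% and 46.4%) were close in both. Taking genes whose exons form 1 block over all transcripts, 23 of 24 lincRNAs had a fold below 0 (median -0.27), whereas 98 of 244 autosomal protein-coding genes of at least 100 counts did (median 0.06). Antisense genes chosen by the same limits leaned down too, with 6 of 8 of 1 block below 0 (median -0.29) and 24 of 36 of more blocks (median -0.10). The split by exons was chosen after the data were seen, and no test of the difference was made.

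**Figure D4:**
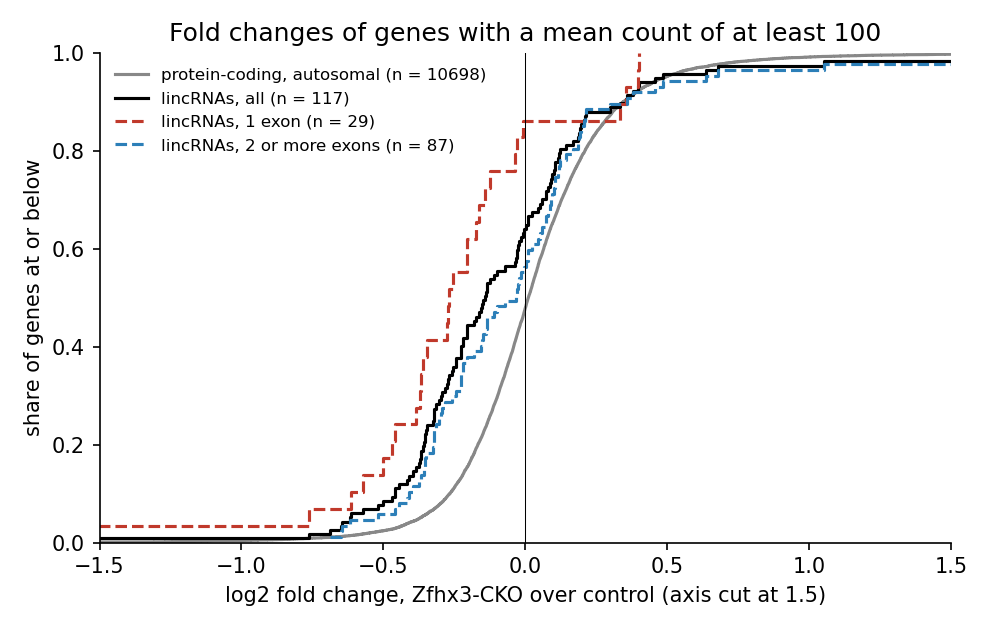
Cumulative share of genes at or below each log2 fold change (Zfhx3-CKO over control), for genes with a mean count of at least 100: autosomal protein-coding genes (grey), all 117 lincRNAs (black), and lincRNAs with 1 exon (red, dashed) or more (blue, dashed). The curve of the lincRNAs with 1 exon lies farthest to the left, with a median of -0.27 against 0.01 for protein-coding genes.

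Exons of 46 lincRNAs, 6 of the 13 called ones among them, overlap exons of another gene on either strand. The miRNA genes that a lincRNA holds were counted too, and for Mir124a-1hg they are the only overlap. Reads there cannot all be assigned with certainty. The sources used here do not say that strand was marked, and on the same strand marking would not separate them. Leaving these 46 out, a choice made after seeing the data, left 71 lincRNAs with 2 higher and 5 lower and a median of -0.21. Some hosts were thus left out for their own miRNA genes. At least 1 stretch of 100 bases at 95% identity with another annotated gene was found in 30 of the 117.

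Fold changes of lincRNAs and their nearest protein-coding genes showed no common direction. Of 95 lincRNAs with a protein-coding gene within 50 kb, 90 had a tested neighbour, and 43 of these pairs (47.8%) had the same sign of fold change, with a Spearman rho of 0.01 across pairs, which are not independent. Of 8 called lincRNAs and 8 called neighbours in these pairs, 1 pair was called in the same direction, Gm45836 with Klhdc4; within 200 kb there were 2, the other being A430106G13Rik with Ptprc. Among the other called neighbours, Bcl11a beside Gm12063 fell from 447 ± 42.1 to 351 ± 18.5 CPM (adjusted p 0.0439, log2 fold change -0.35) and Polg beside Mir9-3hg rose from 72.8 ± 2.08 to 88.5 ± 2.16 CPM (adjusted p 0.0335, log2 fold change 0.28), neither with a call of the lincRNA. Both calls were kept in 2 of the 6 fits without a library, for Bcl11a without control library 3 or Zfhx3-CKO library 3 and for Polg without Zfhx3-CKO library 2 or 3, and otherwise lost (adjusted p up to 0.181 and 0.14). The start sites of 34 lincRNAs faced away from those of their neighbours on the opposite strand, and their median log2 fold change was -0.14, close to that of the 32 on the strand of the neighbour without overlap (-0.13).

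**Figure D5:**
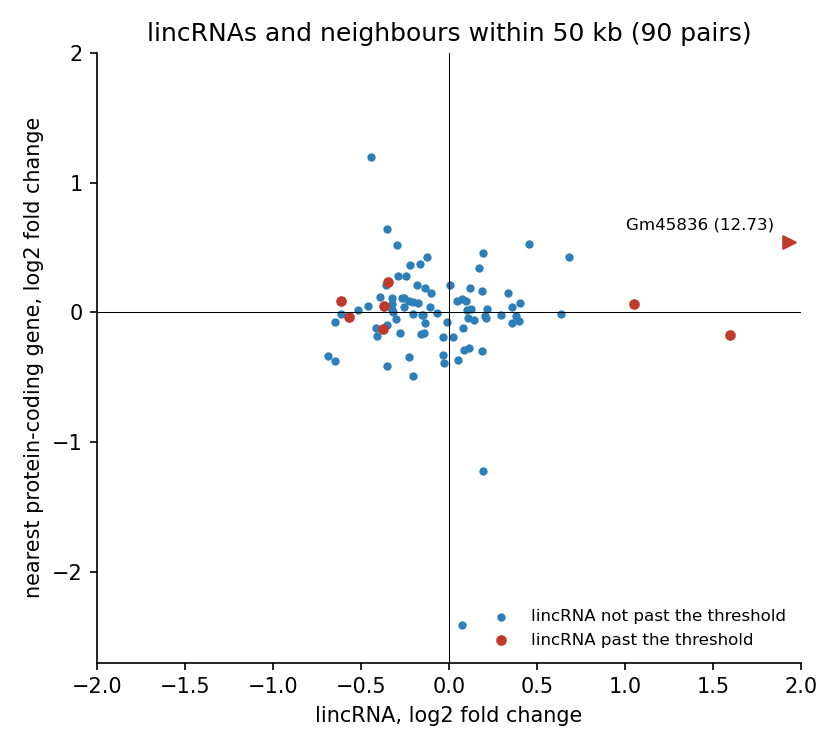
Log2 fold change of each lincRNA against that of its nearest protein-coding gene within 50 kb, for 90 pairs, red where the lincRNA passed the threshold; Gm45836 is drawn as a triangle at the right edge. The points spread over both sides of 0 on both axes, with 43 pairs of the same sign.

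Promoter windows from RefSeq (GRCm38.p6), running from 250 bases before the start site to 50 bases after it, could be matched for 52 of the 117 lincRNAs. For each the window nearest the deposited start was taken, and it need not lie at that start. For Gm3764 its start site lay 7669 bases away. The median GC content of the 52 windows was 56.8% and their median ratio of observed to expected CpG 0.663. The 32851 windows of all genes had 52.7% and 0.384. The homeodomain core motif TAATTA, which reads the same on both strands, was present in 0 of the 52 and in 5.29% of all windows. The 52 windows are few and richer in GC than all windows, so the 0 cannot be read as a lack of this motif. No test of it was made. For the lincRNAs past the threshold with a window at the deposited start site, the windows are shown with the 50 bases after the RefSeq start in capitals, which for 2700038G22Rik do not all lie in a GENCODE vM21 transcript: 2700038G22Rik (chr5:23850347-23850646, plus), which rose, and C130071C03Rik (chr13:83721131-83721430, plus) and Malat1 (chr19:5802623-5802922, minus), which fell.
2700038G22Rik: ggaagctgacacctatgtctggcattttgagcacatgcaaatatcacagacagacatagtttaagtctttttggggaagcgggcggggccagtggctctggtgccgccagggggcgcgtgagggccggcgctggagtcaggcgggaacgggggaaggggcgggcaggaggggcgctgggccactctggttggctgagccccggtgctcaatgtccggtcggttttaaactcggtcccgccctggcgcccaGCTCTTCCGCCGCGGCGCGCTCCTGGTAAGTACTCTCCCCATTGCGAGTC
C130071C03Rik: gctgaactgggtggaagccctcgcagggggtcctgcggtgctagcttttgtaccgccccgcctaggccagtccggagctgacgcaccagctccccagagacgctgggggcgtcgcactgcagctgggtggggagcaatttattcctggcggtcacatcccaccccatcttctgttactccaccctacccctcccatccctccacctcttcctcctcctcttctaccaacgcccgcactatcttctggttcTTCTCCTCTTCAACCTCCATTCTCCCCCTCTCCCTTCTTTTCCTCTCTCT
Malat1: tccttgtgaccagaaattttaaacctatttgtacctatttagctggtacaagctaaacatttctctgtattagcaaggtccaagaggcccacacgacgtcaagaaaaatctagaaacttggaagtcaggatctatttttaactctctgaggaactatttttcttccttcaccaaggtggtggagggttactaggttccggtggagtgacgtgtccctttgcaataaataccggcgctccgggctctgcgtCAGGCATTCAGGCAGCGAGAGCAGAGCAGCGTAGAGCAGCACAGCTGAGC
The window of 2700038G22Rik had 64.3% GC and 23 CpG dinucleotides, that of C130071C03Rik 60.7% and 12, and that of Malat1 47.0% and 10.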

How the data were processed

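RNA-seq of 6 LGE libraries, 3 control and 3 Zfhx3-CKO, was analysed from tables deposited by the authors. Libraries were made with an Illumina TruSeq RNA kit, per the labels' protocols. As tools, per the submitters' processing notes, edgeR, StringTie, HISAT2 and bcl2fastq 2.17.1.14 are listed, and as builds mm10 and GRCm38.p4, none with its role. Per the file headers, the deposited counts are whole numbers per gene without normalisation, and the deposited FPKM values were scaled by the authors to gene length and library total. The authors' log2 fold changes, p-values and adjusted p-values in the deposited table were not used here. The columns of the full table carry short names; they were tied to samples by group word and replicate number, and for all 3726 genes of a shorter table that carries the sample titles the values were identical.

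Counts were tested with edgeR 4.0.16 (R 4.3.3, limma 3.58.1): TMM factors, filterByExpr at a minimum count of 10 (16551 genes kept), quasi-likelihood test, Benjamini-Hochberg adjustment at 0.05 over all tested genes. CPM are counts over library total times TMM factor; errors are SD over 3 libraries and SE come from the F statistic. Fold changes against the control mean were taken on log2(CPM + 0.1). The test was checked on simulated data. Alternatives were DESeq2 1.42.0, RLE factors, library totals, other filters, a replicate block, each library left out, Zfhx3-CKO libraries 1 and 3 left out together, limma-trend on log2(FPKM + 1), and other count limits. Gene models are those of GENCODE vM21 (GRCm38), copies were found by blastn between annotated transcripts, and sequences are from RefSeq. The members and lists were chosen with earlier results of these data known. Genes named were all lincRNAs past the threshold, the 10 of highest FPKM, up to 5 of each list by count, the 3 nearest the count limit on each side, and the nearest protein-coding gene within 50 kb of these; others are said to be named after their values were seen.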

Additional observations from a re-analysis of the deposited data

How the results depend on the processing

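The 3 lincRNAs higher and 10 lower became 5 and 13 without the low-count filter, 6 and 15 with DESeq2 (which called all 13), 3 and 8 by limma-trend on log2(FPKM + 1), 5 and 14 without both Zfhx3-CKO libraries 1 and 3, 5 and 15 at a mean count of at least 50 and 1 and 10 at at least 200; with both group means at least 100 the higher count was 0, and without exonic overlap the lower count was 5 and the median log2 fold change -0.207 in place of -0.141. Leaving out 1 library gave 1 to 6 higher and 2 to 16 lower lincRNAs, medians of -0.149 to -0.110, and for all tested genes 156 to 1082 higher and 131 to 1014 lower, where all 6 libraries gave 640 and 576. For all tested genes, 1075 were higher without the filter and 1014 with DESeq2. Libraries of the same number did not deviate together (correlations -0.0348, -0.0811 and -0.251); a fit with the number as a replicate block called 3 lincRNAs higher and 2 lower, and 176 and 136 of all genes. Leaving out both Zfhx3-CKO libraries 1 and 3 sets 1 library against 3 controls, and the lone library is assumed to vary like the controls. The share of neighbour pairs with the same sign was 52.9% within 10 kb and 49% within 200 kb. Over 38 named lincRNAs, 444 values under the alternatives kept direction and side of the threshold, 56 lost the call and 15 gained one. The sign changed in 16 values, none of them past the threshold: D030068K23Rik under RLE factors (0.000656), no filter (0.002993) and DESeq2 (0.000712), Mir17hg without Zfhx3-CKO libraries 1 and 3 (0.0651), and with 1 library left out D030068K23Rik (-0.109 to 0.0876), E130102H24Rik (-0.135 to 0.057), Epb41l4aos (-0.0735 to 0.213), Gm32856 (-0.0581 to 0.168), Snhg12 (-0.321 to 0.00985) and Snhg6 (-0.0327 to 0.313). The cause of these changes was not tested. At 100 to under 200 mean counts, the SE of a log2 fold change had a median of 0.168 (0.085 from 1000 counts up), so differences near that size were not detectable there.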
